A study of Mus musculus with 24 samples.

Results

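The 10 genes described here, Dazl, Mael, Sycp3, Sycp1, Taf7l, Stk31, Tex101, Slc25a31, Hormad1 and Fmr1nb, are germline genes known as targets of promoter DNA methylation. They were taken by symbol from a fixed list and joined by gene ID to the 24594 genes of the deposited count table, and all 10 were found. All 10 also passed the filter on low counts that left 15682 genes for testing. The 10 genes were chosen by name with the RNA levels and fold changes of these same libraries in view, so the levels and changes of the 10 genes are given as a description and no p-value is printed for them. A call, defined below, is used for them only as a fixed cut-off on size and adjusted p.

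RNA, labelled as polyadenylated in all samples, was sequenced in 24 libraries of mouse embryonic stem cells (mESCs) of 129S6/SvEvTac background, untreated and grown in serum with LIF on gelatin. WT cells gave 11 libraries, and Rsf1Δ, Tip5Δ (Baz2a), Acf1Δ (Baz1a), WstfΔ (Baz1b) and BptfΔ gave 2 libraries each. A further 3 libraries are labelled Cecr2Δ. In each line CRISPR-Cas9 was used to delete 1 noncatalytic subunit of an imitation switch (ISWI) chromatin remodeling complex, and each genotype is represented by 1 clone, so that genotype and clone cannot be told apart. A letter in the sample names, used here as the batch, ties each line to its WT libraries: Rsf1Δ and WstfΔ to the same 2 WT libraries of batch A, Tip5Δ to 2 of batch B, BptfΔ to 2 of batch C, Cecr2Δ to 3 of batch D and Acf1Δ to 2 of batch E. The study's methods call the replicate libraries independent, and the labels do not name the cultures they came from. With 1 clone per genotype, the spread between replicates does not cover differences between clones.

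Total counts ranged from 13.4 to 36.7 M per library, with a median of 25.0 M. Levels are given as normalized CPM, which are counts divided by the total of the library in M (mega-counts) after scaling with TMM factors, and 3 counts correspond to between 0.0837 and 0.22 normalized CPM depending on the library. The mRNA of the targeted gene passed the test as lower in Rsf1Δ, Acf1Δ, WstfΔ and BptfΔ, with a log2(FC) between -2.40 and -1.72. Baz2a had a log2(FC) of -0.26 in Tip5Δ (edgeR quasi-likelihood test, adjusted p = 0.0533). Cecr2 mRNA was not lower in the libraries of that line, with a log2(FC) of 0.37 (edgeR, adjusted p = 0.000154). The counts therefore cannot check that label, and these samples are called the libraries labelled Cecr2Δ. A mutation can remove a protein without lowering its mRNA. By western blot, which is not part of the counts used here, the study detected no protein of the targeted gene in any deletion line. Both WT and BptfΔ libraries of batch C held Rpph1, an RNA without a poly(A) tail, at 3288 to 4824 normalized CPM, against at most 3.39 in the 20 other libraries, so the batch C libraries go against the label of polyadenylated RNA. The part of this difference in the BptfΔ results was not tested.

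Germ cells switch on a set of genes for meiosis, transposon control and sperm function that most other cells keep silent. Many of these genes have CpG-rich promoters that gain DNA methylation in the early embryo, through DNMT3A, DNMT3B and the cofactor DNMT3L, and stay methylated in somatic tissues through DNMT1 and UHRF1. In mESCs a second layer of repression comes from the noncanonical Polycomb complex PRC1.6, whose MAX and MGA subunits bind the E-box CACGTG and whose E2F6 subunit binds E2F sites with the core TCCCGC. Neither DNA methylation nor protein binding was measured in the counts used here.

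The promoter windows were examined because the label of the 10 genes refers to them. Each window runs from 250 bases before to 50 bases after the annotated start (RefSeq, GRCm38.p6), and all 10 genes matched among 27025 promoters, 1 per gene. The 10 windows held a median of 21.5 CpG dinucleotides, against 7 for all promoters, and their median ratio of observed to expected CpG was 0.788 against 0.389. Stk31 had 29 CpGs and Dazl 28, while Fmr1nb had the fewest with 9, and the other 7 genes lay between 15 and 24. CACGTG, which reads the same on both strands, occurred in 7 of the 10 windows (Mael, Sycp3, Sycp1, Taf7l, Stk31, Slc25a31 and Hormad1) and in 7.24% of all windows. Among the 12490 windows with at least 9 CpGs, 11% held it. TCCCGC, searched on both strands, occurred in 5 windows (Mael, Sycp3, Sycp1, Slc25a31 and Hormad1), in 20% of all windows and in 39.0% of those with at least 9 CpGs. In none of these 5 windows did a TCCCGC overlap a CACGTG, and a match is a description of the sequence only.

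Below are the 150 bases immediately before the annotated start of 6 of the genes, 5′ to 3′ on the strand of the gene, with each CpG in capitals. Sycp1, Sycp3, Slc25a31 and Hormad1 are shown because the E-box, which appears as caCGtg, lies in this stretch, at 2 places in Sycp3 and in Hormad1. Taf7l and Stk31 also had an E-box here, at positions -49 and -55 from the start, and are not printed because their stretches overlap the annotated gene. The E-box of Mael, at -223, lies outside the stretch. Dazl and Fmr1nb are shown because they had no CACGTG in their windows and because they gave the largest increase and the largest decrease of the 10 genes. The regions are chr17:50293621-50293770 on the minus strand for Dazl, chr3:102936101-102936250 on the minus strand for Sycp1, chr10:88459437-88459586 on the plus strand for Sycp3, chr3:40708721-40708870 on the plus strand for Slc25a31, chr3:95559527-95559676 on the plus strand for Hormad1 and chrX:68761689-68761838 on the plus strand for Fmr1nb.
Dazl: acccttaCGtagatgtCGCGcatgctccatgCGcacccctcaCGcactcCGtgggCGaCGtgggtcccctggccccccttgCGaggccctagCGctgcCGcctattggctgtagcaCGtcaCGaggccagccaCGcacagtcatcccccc
Sycp1: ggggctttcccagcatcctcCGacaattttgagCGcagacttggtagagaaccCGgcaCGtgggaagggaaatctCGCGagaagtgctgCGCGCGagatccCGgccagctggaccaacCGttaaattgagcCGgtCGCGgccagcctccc
Sycp3: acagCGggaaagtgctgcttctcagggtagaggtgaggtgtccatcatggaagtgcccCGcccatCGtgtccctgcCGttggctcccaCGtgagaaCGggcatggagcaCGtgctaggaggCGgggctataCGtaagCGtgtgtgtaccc
Slc25a31: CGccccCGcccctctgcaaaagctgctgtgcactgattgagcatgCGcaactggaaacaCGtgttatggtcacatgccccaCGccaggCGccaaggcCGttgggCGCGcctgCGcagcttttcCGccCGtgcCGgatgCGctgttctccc
Hormad1: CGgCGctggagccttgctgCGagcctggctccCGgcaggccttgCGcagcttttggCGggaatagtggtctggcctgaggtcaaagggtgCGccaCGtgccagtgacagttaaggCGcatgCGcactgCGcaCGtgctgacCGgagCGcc
Fmr1nb: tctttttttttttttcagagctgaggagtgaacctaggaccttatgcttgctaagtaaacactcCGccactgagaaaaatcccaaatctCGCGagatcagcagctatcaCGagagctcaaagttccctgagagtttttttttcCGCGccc
Counted from the start, the first base of the E-box was at position -94 in Sycp1, -93 in Slc25a31, -64 and -43 in Sycp3, and -57 and -20 in Hormad1. The stretch of Fmr1nb held 6 CpGs, against 14 in those of Dazl, Sycp1, Slc25a31 and Hormad1 and 10 in that of Sycp3.

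**Figure D1:**
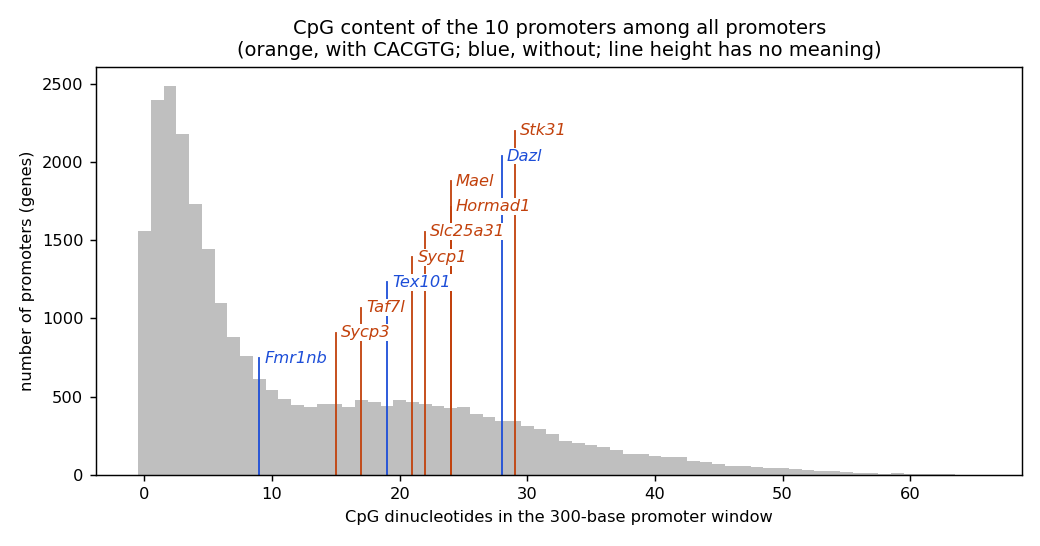
Histogram of the number of CpG dinucleotides in the 300-base promoter windows of 27025 genes (x axis, CpGs per window; y axis, number of promoters), with the 10 germline genes marked by vertical lines, orange with and blue without CACGTG; the height of a line has no meaning. All 10 lie above the median of 7 CpGs, from 9 in Fmr1nb to 29 in Stk31.

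In WT cells none of the 10 genes was at 0. The lowest count of any member in any WT library was 12 (Tex101) and the highest was 1035 (Stk31). To compare genes, levels were divided by the transcript width given in the authors' table. On this scale of normalized CPM per kilobase, the mean WT level over 11 libraries was 23.9 ± 4.35 (SD) for Fmr1nb, 9.94 ± 1.27 for Mael and 8.13 ± 3.87 for Sycp3. Hormad1 followed with 7.71 ± 1.48, Stk31 with 7.66 ± 0.83, Sycp1 with 5.22 ± 0.951 and Dazl with 5.02 ± 0.881. The lowest were Taf7l with 3.16 ± 0.822, Slc25a31 with 2.68 ± 0.612 and Tex101 with 0.537 ± 0.147. Fmr1nb stood above every other member in each range of 11 libraries, and Tex101 below, while every other pair of neighbours in this order had overlapping ranges.

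For comparison, the median of all tested genes was 4.65 normalized CPM per kilobase, and 7 of the 10 genes lay above it. Fmr1nb exceeded 83.9% of tested genes and Tex101 19.6%. The 6 pluripotency genes used as mESC markers lay between 56.3 (Klf4) and 538 (Pou5f1) on the same scale. The word silenced in the usual name of this gene group therefore does not describe the RNA of 9 of the 10 genes in these WT cells, which gave at least 82 counts in every library. Tex101 was lower, at 12 to 36 counts. Since the genes were chosen with these levels in view, this describes the 10 genes only. In bulk RNA, fewer expressing cells and less RNA per cell cannot be told apart.

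WT batches differed for some genes. Sycp3 varied most, from a mean of 5.76 normalized CPM in batch D to 16.5 in batch B, a 2.87-fold difference, and Stk31 varied least, from 21.8 in batch E to 26.3 in batch D. Each line was therefore compared with the WT libraries of its own batch, in a model with a term for batch. A gene was called when its absolute log2(FC) was over 1 and its adjusted p under 0.01.

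Of the 60 comparisons of a gene with a line, 14 were called, of which 13 were lower and 1 higher. BptfΔ had 6 called genes, all lower, where 8.59% of all tested genes were called lower, 5.25% higher and 13.8% in either direction. WstfΔ had 5, all lower, where 6.57% of all genes were called lower, 3.87% higher and 10.4% in either direction. Tip5Δ had 1, lower, where 2.63% were called lower, 0.0829% higher and 2.72% in either direction. Acf1Δ also had 1, lower, where 3.32% were called lower, 1.14% higher and 4.45% in either direction. Rsf1Δ had 1 called gene, which was higher, where 0.65% of all genes were called higher, 5.26% lower and 5.91% in either direction. The libraries labelled Cecr2Δ had 0 by edgeR and by DESeq2, where 2.33% were called lower, 0.784% higher and 3.11% in either direction. Because the genes were chosen with these comparisons in view, nothing is read from these counts against the shares.

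The median log2(FC) of the 10 genes was -1.43 in BptfΔ and -0.91 in WstfΔ. It was -0.35 in Tip5Δ, -0.28 in Acf1Δ, -0.28 in the libraries labelled Cecr2Δ and 0.42 in Rsf1Δ, the line with a positive median. The median of all tested genes lay between -0.03 and 0.01 in every line. WstfΔ and Rsf1Δ were measured against the same WT libraries.

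The libraries of a line were then set against the WT libraries of its own batch without a threshold. In BptfΔ 9 of the 10 genes were lower in both libraries than in both WT libraries (38.7% of all genes) and 1 was higher (41.2%). In WstfΔ 8 were lower (40.8%) and 2 higher (36.2%), whereas in Rsf1Δ, against the same WT libraries, 3 were lower (34.4%) and 7 higher (32.7%). In Tip5Δ 6 were lower (32.4%) and 2 higher (30.9%). In Acf1Δ 5 were lower (33.3%) and 1 higher (30%). In the libraries labelled Cecr2Δ, with 3 against 3, 6 were lower (18.4%) and 2 higher (19.9%).

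Set against all 11 WT libraries, the BptfΔ libraries were below every one for 7 genes (20.6% of all genes) and above for none (20% of all genes). The WstfΔ libraries were below for 7 (11.6%) and above for none (11.7%). The Tip5Δ libraries were below for 4 (7.52%) and above for none (7.8%). The Acf1Δ libraries were below for 2 (6.21%) and above for none (5.03%). Those labelled Cecr2Δ were below for 2 (6.29%) and above for 1 (5.17%). The Rsf1Δ libraries were above all 11 for 5 genes (4.62%) and below for none (5.75%).

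**Figure D2:**
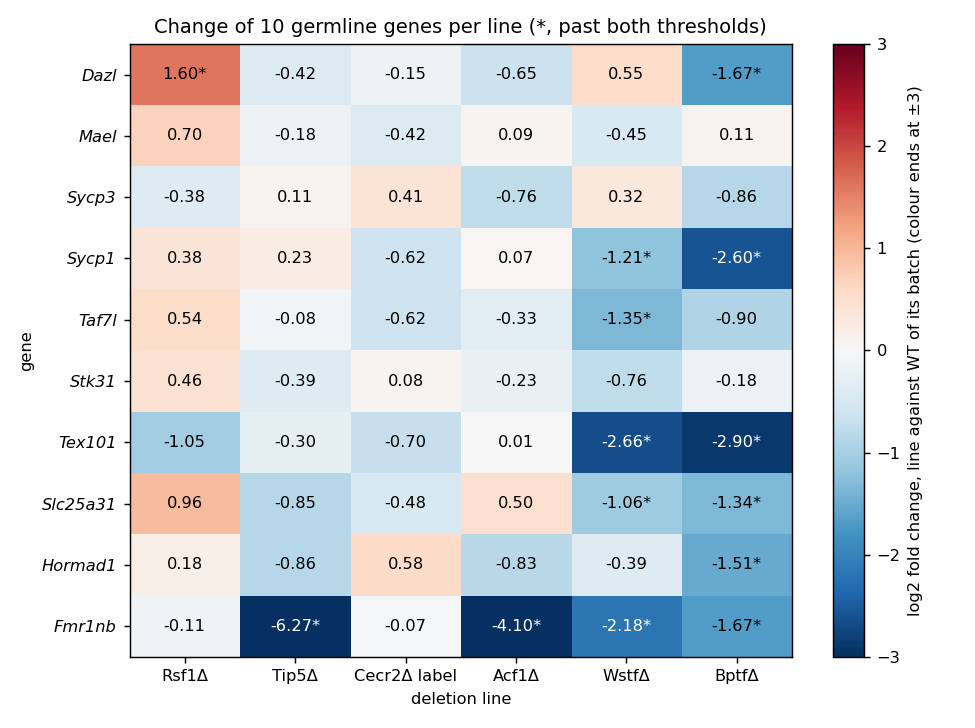
Log2 fold change of each of the 10 genes (rows) in each line (columns) against the WT libraries of its batch, with red for higher, blue for lower and the colour scale ending at 3 in either direction; an asterisk marks the 14 values past both thresholds. The 13 called decreases lie in Tip5Δ, Acf1Δ, WstfΔ and BptfΔ, and the called increase is Dazl in Rsf1Δ.

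Dazl encodes an RNA-binding protein that controls translation in germ cells and is needed for their development. Located on chromosome 17 between 50279393 and 50293620 (ID 13164; all gene positions are RefSeq on GRCm38.p6), it was at a median of 19.3 normalized CPM in WT libraries, with a range of 13.5 to 23.7. In Rsf1Δ the libraries gave 48.5 and 38.8 normalized CPM against 15.2 and 13.5 in WT of batch A, a log2(FC) of 1.60 ± 0.103 (SE). Both Rsf1Δ libraries were above all 11 WT libraries. In WstfΔ, with the same WT libraries, it was at 23.1 and 18.8, a log2(FC) of 0.55 ± 0.114, within the range of all WT libraries. In BptfΔ it was at 5.87 and 6.12 against 19.7 and 18.4, a log2(FC) of -1.67 ± 0.134, and both libraries were below every WT library. Acf1Δ (13.1 and 13.3 against 22.2 and 19.3) and Tip5Δ (12.2 and 13.0 against 16.8 and 17.0) were also below all WT libraries but did not reach the fold threshold, with log2(FC) values of -0.65 and -0.42.

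Sycp1, Sycp3 and Hormad1 act on meiotic chromosomes. SYCP1 forms the transverse filaments of the synaptonemal complex, SYCP3 is part of its axis, and HORMAD1 binds unsynapsed axes and promotes double-strand break formation and synapsis. Sycp1 (ID 20957, chromosome 3 from 102818499 to 102936100) was at 3.53 and 4.22 normalized CPM in BptfΔ against 22.9 and 24.3 in WT of batch C, a log2(FC) of -2.60 ± 0.14. In WstfΔ it was at 7.59 and 7.83 against 17.6 and 18.0, a log2(FC) of -1.21 ± 0.13. Both lines lay below all 11 WT libraries, whose lowest value was 14.3. The libraries labelled Cecr2Δ gave 12.0, 13.4 and 13.3 against 21.8, 17.9 and 19.9, also below all WT libraries, with a log2(FC) of -0.62. Rsf1Δ (22.8 and 23.7) was above its WT libraries and within the range of all 11, at a log2(FC) of 0.38.

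Hormad1 (ID 67981, chromosome 3 from 95559677 to 95587863) was called in BptfΔ, at 3.83 and 4.33 normalized CPM against 11.2 and 12.1, a log2(FC) of -1.51 ± 0.174. Tip5Δ was lower at 6.04 and 7.03 against 12.0 and 11.7, and Acf1Δ at 8.21 and 11.3 against 19.5 and 15.2, with log2(FC) values of -0.86 and -0.83. Without replicate 2 of Acf1Δ it was called there at -1.08, and in the model without batch it was called in Tip5Δ at -1.03. The libraries labelled Cecr2Δ went the other way, at 20.3, 21.8 and 20.8 against 15.6, 12.8 and 13.8. These were above all 11 WT libraries, at a log2(FC) of 0.58.

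Sycp3 (ID 20962, chromosome 10 from 88459587 to 88473236) was not called in any line. Its log2(FC) ran from -0.86 in BptfΔ, with 4.01 and 4.97 normalized CPM against 7.30 and 9.05, to 0.41 in the libraries labelled Cecr2Δ. It was called in BptfΔ without replicate 2 of BptfΔ (-1.02) or replicate 1 of WT in batch C (-1.01), and in Acf1Δ without replicate 2 of WT in batch E (-1.03). With all libraries its log2(FC) in Acf1Δ was -0.76, and no other alternative gave a call in either line. No line lay outside the range of all 11 WT libraries, 4.46 to 18.6, on both of its libraries. The gene overlaps Chpt1 and the use of strand in counting is not stated, so reads of the pair may be mixed.

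Mael and Stk31 belong to the germ granules in which transposons are kept in check. MAEL is a component of the piRNA pathway, and STK31 is a protein with a Tudor domain and a kinase-like domain. Neither gene was called in any line. Mael (ID 98558, chromosome 1 from 166201385 to 166238744) ranged from 14.4 to 21.4 normalized CPM in WT. It was highest in Rsf1Δ at 25.8 and 24.8 against 16.8 and 14.4, a log2(FC) of 0.70, and lowest in WstfΔ at 11.5 and 11.4, a log2(FC) of -0.45. Stk31 (ID 77485, chromosome 6 from 49395506 to 49469506) had the same order at these ends, with 35.5 and 35.1 in Rsf1Δ and 15 and 15.4 in WstfΔ against 25.8 and 25.5, log2(FC) values of 0.46 and -0.76. In BptfΔ, where 6 of the other 8 genes were called, Mael had a log2(FC) of 0.11 and Stk31 of -0.18.

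Taf7l encodes a germ cell paralogue of the TFIID subunit TAF7 and lies on chromosome X from 134460116 to 134476505 (ID 74469). In WstfΔ it was at 2.82 and 2.93 normalized CPM against 6.34 and 8.40, a log2(FC) of -1.35 ± 0.203, below all 11 WT libraries (4.26 to 9.69). BptfΔ, at 3.17 and 3.47 against 5.41 and 7.06, and the libraries labelled Cecr2Δ, at 3.70, 2.98 and 3.18 against 5.78, 4.26 and 5.03, were also below all WT libraries. Their log2(FC) values of -0.90 and -0.62 did not reach the fold threshold. Without replicate 1 of WT in batch C, Taf7l was called in BptfΔ at -1.09. Rsf1Δ was at 10.7 in both libraries, above all WT libraries, at a log2(FC) of 0.54.

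Slc25a31 encodes the ADP/ATP carrier of germ cell mitochondria, and Tex101 a glycoprotein of the germ cell surface linked to sperm fertility. Slc25a31 (ID 73333, chromosome 3 from 40708871 to 40726094) was at 1.74 and 2.31 normalized CPM in BptfΔ against 4.88 and 5.43, a log2(FC) of -1.34 ± 0.195. In WstfΔ it was at 2.96 and 3.29 against 6.90 and 6.12, a log2(FC) of -1.06 ± 0.175 that lies close to the threshold. It was no longer called without replicate 1 of WstfΔ (-0.98), without replicate 1 of WT in batch A (-0.97) or in the model without batch (-0.87). In Rsf1Δ it was at 13.1 and 12.2, above all WT libraries, at a log2(FC) of 0.96, and leaving out replicate 2 of Rsf1Δ or replicate 1 of that WT brought it past the threshold (1.01 and 1.05).

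Tex101 (ID 56746, chromosome 7 from 24668012 to 24672050) had the lowest counts of the 10 genes. In WstfΔ both libraries together held 5 counts against 57 in WT of batch A, a 6.49-fold lower share with a 95% exact binomial interval of 2.63 to 20.8. In BptfΔ they held 3 counts against 25, a 7.83-fold lower share with an interval of 2.39 to 40.5. These intervals cover counting error only. The fitted log2(FC) values of -2.66 ± 0.545 and -2.90 ± 0.685 were called, but not without replicate 1 of WstfΔ (-1.99) or replicate 1 of BptfΔ (-2.53). In Rsf1Δ it was at 0.601 and 0.529 normalized CPM against 1.36 and 0.99, the member with the lowest log2(FC) in that line, -1.05 ± 0.369, not called.

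Fmr1nb is a cancer-testis gene on chromosome X, from 68761839 to 68804561 (ID 207854), and was the member called in the most lines, with 4. It was the most abundant of the 10 per kilobase in WT. In Tip5Δ it was at 0.394 and 0.208 normalized CPM against 26.7 and 20.3 in WT of batch B, a 77.4-fold decrease with a log2(FC) of -6.27 ± 0.216. In Acf1Δ it was at 0.97 and 1.45 against 21.8 and 20, a 17.2-fold decrease with a log2(FC) of -4.10 ± 0.163. WstfΔ gave 5.42 and 5.34 against 24.9 and 24.1, and BptfΔ 8.80 and 8.61 against 27.5 and 28.1. Their log2(FC) values were -2.18 ± 0.143 and -1.67 ± 0.127, and in all 4 lines every library was below the lowest of the 11 WT libraries, 16.2.

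Rsf1Δ and the libraries labelled Cecr2Δ were the lines in which Fmr1nb was not called. It was at 22.0 and 23.2 normalized CPM in Rsf1Δ, a log2(FC) of -0.11 with a 95% interval of -0.32 to 0.10. It was at 17.5, 17.1 and 16.2 in the libraries labelled Cecr2Δ, a log2(FC) of -0.07 with an interval of -0.24 to 0.10.

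The tested genes next to the 10 genes were read as well, 21 in all, and those named here were picked after their values were seen. In 5 of the 14 called comparisons a neighbouring gene was called in the same line and direction. These were decreases in WstfΔ and BptfΔ, where 6.57% and 8.59% of all tested genes were called lower, so the count is a description only. Fmr1, which ends 43.9 kb before Fmr1nb, had a log2(FC) of 0.02 in Tip5Δ and -0.46 in Acf1Δ and was not called in any line. Aff2, 556 kb after it, had -0.79 in Tip5Δ and -0.56 in Acf1Δ, neither called, and was called in WstfΔ (-2.24; edgeR, adjusted p = 0.000132) and BptfΔ (-1.84; edgeR, adjusted p = 0.00509). Drp2, 3.54 kb before Taf7l, was called lower in 5 lines, every one but Acf1Δ, with a log2(FC) of -2.71 in WstfΔ (edgeR, adjusted p = 5.63e-13), where Taf7l was called, and of -1.66 in Rsf1Δ, where Taf7l was at 0.54. Tspan2, 46.2 kb before Sycp1, was called in WstfΔ (-2.32; edgeR, adjusted p = 2.6e-11), as Sycp1 was, and had a log2(FC) of 0.07 in BptfΔ. It was also called lower in Rsf1Δ (-1.46; edgeR, adjusted p = 8.04e-09) and Tip5Δ (-1.21; edgeR, adjusted p = 1.18e-06), where Sycp1 was at 0.38 and 0.23 and not called. Rftn1, 88.9 kb before Dazl, was called in BptfΔ (-1.68; edgeR, adjusted p = 7.34e-06), as Dazl was, and had -0.09 in Rsf1Δ. In the other 9 called comparisons, the increase of Dazl in Rsf1Δ and the decreases of Fmr1nb in Tip5Δ and Acf1Δ among them, no neighbour was called in the same direction.

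**Figure D3:**
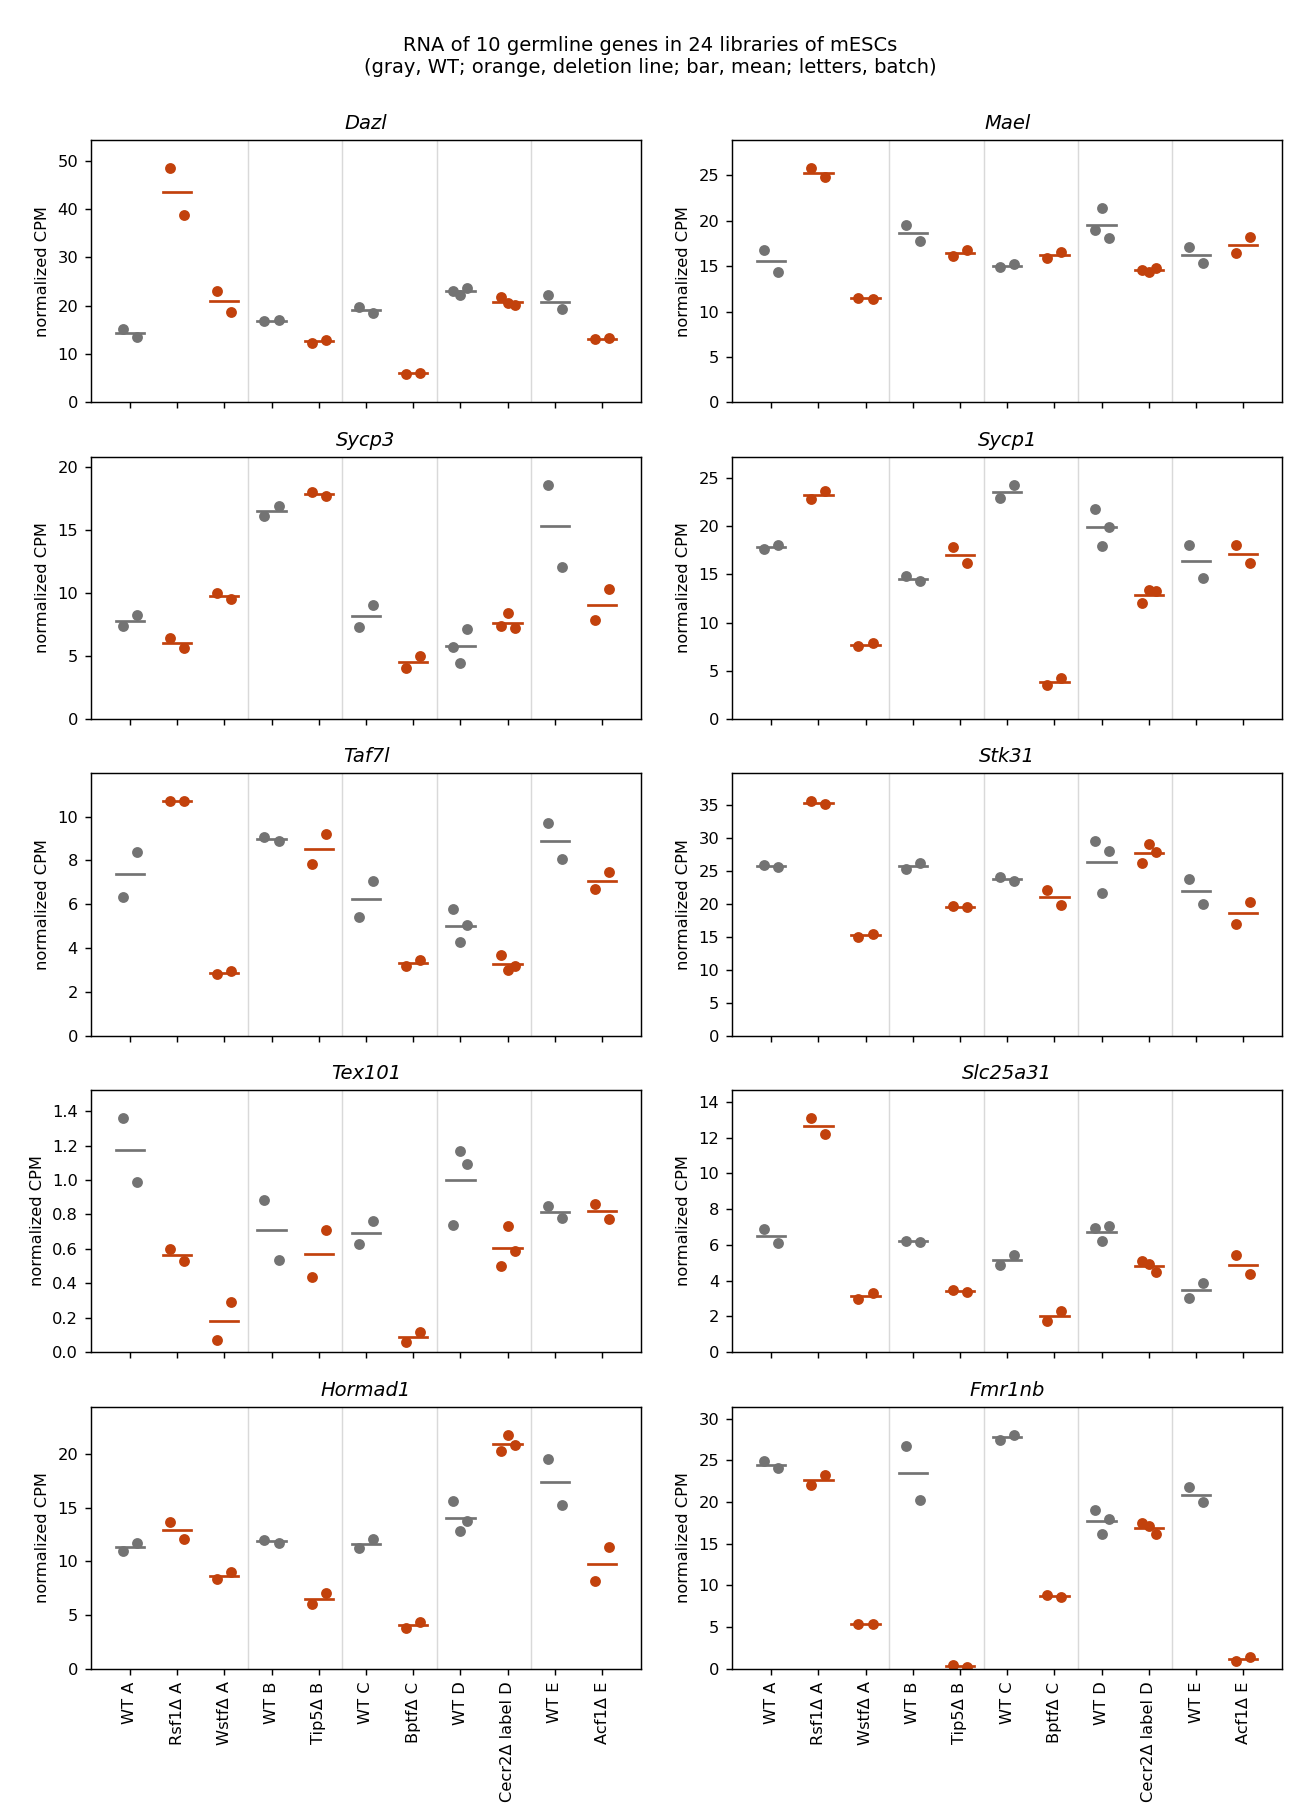
Level of each of the 10 genes in each of 24 libraries in normalized CPM (y axis, linear and starting at 0, with its own scale for each gene), by group along the x axis; each point is a library, gray for WT and orange for a deletion line, and the bar is the mean of the group. The Rsf1Δ points of Dazl at 48.5 and 38.8 stand above all other libraries, and those of Fmr1nb in Tip5Δ and Acf1Δ lie near the axis.

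The 10 genes did not vary as 1 unit across the libraries. As a description over 24 libraries, which share batches and WT groups, the Pearson correlation of a gene with the mean of the other 9 genes on the log2 scale was 0.821 for Sycp1 and 0.819 for Slc25a31. It was between 0.518 and 0.706 for Tex101, Dazl, Stk31, Hormad1, Taf7l and Mael. It was 0.322 for Fmr1nb and 0.016 for Sycp3. Per gene, the span of log2(FC) over the 6 lines was widest for Fmr1nb (6.20) and Dazl (3.27) and narrowest for Mael (1.14) and Stk31 (1.22).

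The 4 genes outside the lists whose level was most like the mean of the 10 genes over the 24 libraries were Plcg2 (Pearson r = 0.905), 4930447C04Rik (0.905), Ccdc191 (0.899) and Clca3b (0.891). These genes were picked for following the mean of the 10 genes over the same libraries, so their direction in a line is not independent of it. In BptfΔ their log2(FC) was between -1.95 and -0.76 and in WstfΔ between -2.0 and -0.51. In Rsf1Δ, where the 10 genes had a positive median, it was between -0.10 and 0.28.

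The other germline genes were taken from 4 lists of 65 genes, grouped by function, of which 58 passed the filter on low counts. These lists were written with earlier results of these data known, so their counts are not independent evidence of a direction. For these lists, fell and rose mean called lower and called higher. In BptfΔ 21 of the 58 fell and 3 rose, and in WstfΔ 16 fell and 3 rose. In Tip5Δ 10 fell and 1 rose, in Acf1Δ 6 fell and 2 rose, in Rsf1Δ 2 fell and 1 rose, and in the libraries labelled Cecr2Δ 1 fell and 2 rose. Of all tested genes, 5.25% rose in BptfΔ, 3.87% in WstfΔ and 0.0829% in Tip5Δ. The share was 1.14% in Acf1Δ, 0.65% in Rsf1Δ and 0.784% in the libraries labelled Cecr2Δ. The share that fell was 36.2% in BptfΔ against 8.59% of all tested genes, 27.6% against 6.57% in WstfΔ, 17.2% against 2.63% in Tip5Δ and 10.3% against 3.32% in Acf1Δ. In Rsf1Δ it was 3.45% against 5.26%, and in the libraries labelled Cecr2Δ 1.72% against 2.33%. Their median log2(FC) was -0.91 in BptfΔ, -0.40 in WstfΔ, -0.29 in Tip5Δ, -0.06 in Acf1Δ, -0.07 in the libraries labelled Cecr2Δ and 0.17 in Rsf1Δ. Without replicate 1 of WT in batch A, 1 gene was called in Rsf1Δ in place of 3, with 0 lower in place of 2. Without replicate 1 of WT in batch E, 5 were called in Acf1Δ in place of 8, all 5 lower. In the model without batch, 4 were called in Tip5Δ in place of 11 and 10 in WstfΔ in place of 19, all lower. That model also called fewer of all tested genes, 159 in Tip5Δ in place of 426 and 500 in WstfΔ in place of 1638.

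**Figure D4:**
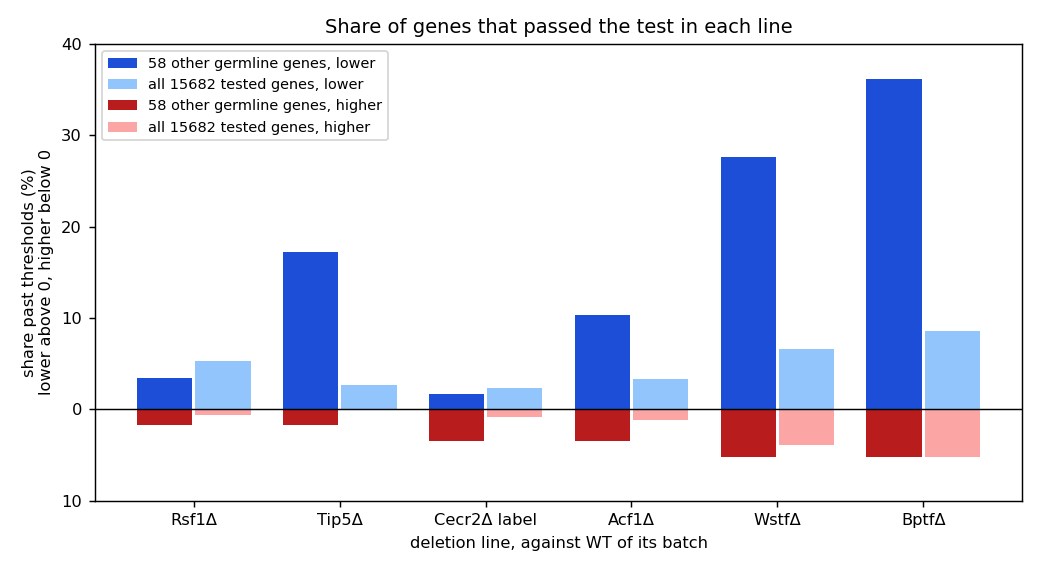
Share of genes past both thresholds in each line, in percent, for the 58 tested genes of the 4 other germline lists (dark bars) and for all 15682 tested genes (light bars); bars above 0 are genes lower in the line and bars below 0 are genes higher. In BptfΔ 36.2% of the germline genes and 8.59% of all genes were lower, and in the libraries labelled Cecr2Δ 1.72% and 2.33%.

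Of 20 tested genes for the meiotic chromosome axis, synapsis and recombination, 6 fell in BptfΔ, 5 in WstfΔ, 2 each in Tip5Δ and Acf1Δ, and 1 rose in the libraries labelled Cecr2Δ. In Rsf1Δ 0 of 20 were called by edgeR, with 8 at an unadjusted p under 0.05. Sycp2, which encodes the axis partner of SYCP3, fell from 2.98 ± 0.0111 normalized CPM in WT to 0.736 ± 0.06 in BptfΔ (SD, n = 2 each; log2(FC) -2.01; edgeR, adjusted p = 2.11e-06). It also fell in WstfΔ (-1.56; edgeR, adjusted p = 6.72e-06). Syce1, a central element protein that joins SYCP1 filaments, fell in WstfΔ (-1.47) and BptfΔ (-1.38), the lines in which Sycp1 was called. Hormad2, a paralogue of Hormad1, fell in Tip5Δ (-2.25), BptfΔ (-1.87) and Acf1Δ (-1.02). Smc1b, the meiotic cohesin subunit, fell in the same 3 lines, by 1.22, 3.0 and 1.30 on the log2 scale in Tip5Δ, BptfΔ and Acf1Δ.

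Of 17 tested piRNA pathway genes, 7 fell in BptfΔ and 7 in WstfΔ, where 1 rose, and 2 fell in each of Tip5Δ and Rsf1Δ. In Acf1Δ and in the libraries labelled Cecr2Δ 0 were called by edgeR, with 8 in each at an unadjusted p under 0.05. Tdrd12, a Tudor protein of the piRNA pathway, fell from 46.5 ± 1.80 to 1.29 ± 0.55 normalized CPM in BptfΔ (SD, n = 2 each; log2(FC) -5.16; edgeR, adjusted p = 1.63e-20). It fell by 2.11 in WstfΔ and by 1.0 in Rsf1Δ on the log2 scale. The change in Rsf1Δ lies on the threshold. It was not called without replicate 1 of WT in batch A, where no gene of the germline lists was called lower. Tex19.1, which restrains retrotransposons in germ cells, fell in Tip5Δ, WstfΔ and BptfΔ with log2(FC) values of -1.21, -1.49 and -1.84. Tdrd5 fell in WstfΔ (-1.18) and BptfΔ (-3.29). Piwil4, which encodes the nuclear PIWI protein that directs DNA methylation at transposons in fetal germ cells, rose in WstfΔ (1.59; edgeR, adjusted p = 4.63e-11) and fell in BptfΔ (-2.46; edgeR, adjusted p = 2.65e-11).

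Of 11 tested genes for germ cell specification and entry into meiosis, 5 fell and 3 rose in BptfΔ, 4 fell and 2 rose in Acf1Δ and 3 fell and 1 rose in WstfΔ. In Tip5Δ 2 fell and 1 rose, in the libraries labelled Cecr2Δ 1 fell and 1 rose, and in Rsf1Δ 1 rose. That gene was Stra8, which is induced by retinoic acid at meiotic entry, at 49.5 ± 2.96 normalized CPM in Rsf1Δ against 8.43 ± 0.0421 in WT (SD, n = 2 each; log2(FC) 2.55; edgeR, adjusted p = 2.12e-15). Stra8 also rose in BptfΔ (1.83), WstfΔ (1.44) and Tip5Δ (1.19). Bhmg1, which encodes the STRA8 partner MEIOSIN, fell in WstfΔ (-3.05) and BptfΔ (-1.37) and rose in Acf1Δ (1.02). That rise lies close to the threshold. It was not called without replicate 1 of WT in batch E or with own WT libraries only, where no gene of the germline lists was called higher. Dppa3, expressed in germ cells and in naive mESCs, fell in Tip5Δ, Acf1Δ, WstfΔ and BptfΔ, the 4 lines in which Fmr1nb was called, with log2(FC) values of -1.13, -2.15, -3.14 and -4.02. In the libraries labelled Cecr2Δ it was also lower but short of the fold threshold (-0.75; edgeR, adjusted p = 0.00204), and in Rsf1Δ it was at -0.41. Fmr1nb was at -0.07 and -0.11 there. Sohlh2, a regulator of spermatogonial differentiation, fell in the libraries labelled Cecr2Δ (-1.10), Acf1Δ (-1.39) and BptfΔ (-3.45).

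Of 10 tested genes for later spermatogenesis and testis enzymes, 4 fell in Tip5Δ, 3 in BptfΔ and 1 in WstfΔ, where 1 rose. In Rsf1Δ, Acf1Δ and the libraries labelled Cecr2Δ 0 were called by edgeR, with 3, 7 and 4 at an unadjusted p under 0.05. D1Pas1, a DEAD-box helicase gene of the male germline, fell in Tip5Δ (-1.06), WstfΔ (-1.28) and BptfΔ (-1.13), with adjusted p of at most 4.42e-10 (edgeR). Tuba3a, a testis tubulin gene, fell in Tip5Δ (-1.17) and rose in WstfΔ (1.4), but it has a near-identical copy, Tuba3b, and reads may be split between them. Tktl1 was at no more than 1 count in either BptfΔ library, and Ldhc, the sperm lactate dehydrogenase gene, was at 0 in both, so their calls rest on low counts.

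Among 21 tested genes for repressors of germline promoters, which comprise the DNA methyltransferases with UHRF1, PRC1.6 subunits and the SETDB1 and G9a pathways, 3 fell in BptfΔ, 2 in WstfΔ and 1 in the libraries labelled Cecr2Δ, and 1 rose in Acf1Δ. The share that fell was 14.3% in BptfΔ and 9.52% in WstfΔ, against 8.59% and 6.57% of all tested genes called lower and 13.8% and 10.4% called in either direction. In Rsf1Δ and Tip5Δ 0 were called by edgeR, with 10 and 8 at an unadjusted p under 0.05. Dnmt3l fell from 340 ± 2.67 normalized CPM in WT to 50.2 ± 2.25 in WstfΔ (SD, n = 2 each; log2(FC) -2.76; edgeR, adjusted p = 3.51e-22). It also fell in BptfΔ (-2.41) and in the libraries labelled Cecr2Δ (-1.21). Dnmt3b fell in WstfΔ (-1.34) and BptfΔ (-1.83). Dnmt3a fell in BptfΔ (-2.63) and rose in Acf1Δ (1.15). The 3 TET genes, which encode enzymes that oxidize 5-methylcytosine, were not called by edgeR in any line, with 0 to 2 of them at an unadjusted p under 0.05 depending on the line. Whether these RNA changes have a part in the levels of the germline genes was not tested.

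The summed level of the 6 mESC markers was between 2527 and 4117 normalized CPM over all libraries, none of them at 0 in every library of a group, and 1 was called higher in WstfΔ and 2 in BptfΔ. The sum was 3898 in BptfΔ against 2611 and 2677 in WT. It was 3763 and 3809 in WstfΔ and 3464 and 3468 in Rsf1Δ, against 2527 and 2618. In Acf1Δ it was 3762 and 3911 against 3182 and 3390, and in the libraries labelled Cecr2Δ 3892 to 4117 against 3436 to 3705. In Tip5Δ it was 3020 and 3119 against 3086 and 3095. The 6 primitive endoderm markers moved with the lines. Their sum was 13.5 and 13.8 in BptfΔ against 140 and 149 in WT, 131 and 137 in WstfΔ against 322 and 329, and 136 and 144 in Rsf1Δ against the same WT libraries. In Tip5Δ it was 71.9 and 78.7 against 326 and 345, in the libraries labelled Cecr2Δ 28.7 to 32.8 against 97.5 to 114, and in Acf1Δ 261 and 298 against 235 and 241. All 6 were called lower in Tip5Δ and BptfΔ, 5 in Rsf1Δ and in the libraries labelled Cecr2Δ, 4 in WstfΔ and 0 by edgeR in Acf1Δ, where all 6 had an unadjusted p under 0.05.

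Of the 6 two-cell-like markers 3 passed the filter on low counts, and the sum of all 6 was at most 4.68 normalized CPM in any library. All 3 were called lower in Acf1Δ, 2 in BptfΔ and 1 in Tip5Δ, and 2 were called higher in the libraries labelled Cecr2Δ and 1 in Rsf1Δ. The 6 fibroblast markers, of which 3 were tested, summed to between 0.636 and 22 normalized CPM. All 3 were called lower in Rsf1Δ, Tip5Δ, Acf1Δ and WstfΔ and 2 in BptfΔ. The 6 markers of gonadal somatic cells summed to between 123 and 355, with 1 of 4 tested called higher, in WstfΔ, and with Fshr at 0 in every library. Their sum was 303 and 306 in WstfΔ and 211 and 214 in Rsf1Δ against 123 and 125 in WT, and 345 and 355 in BptfΔ against 193 and 208. In Acf1Δ it was 240 and 258 against 184 and 198, in Tip5Δ 141 and 144 against 132 and 141, and in the libraries labelled Cecr2Δ 297 to 327 against 246 to 259. The 4 tested markers did not all move with the sum. A negative log2(FC) was found for 3 of them in Tip5Δ and for 2 each in Acf1Δ and the libraries labelled Cecr2Δ. It was found for 1 each in WstfΔ and Rsf1Δ and for 0 in BptfΔ. The part of other cell states in the levels of the 10 genes was not tested.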

How the data were processed

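RNA-seq counts of 24 mESC libraries were analysed. The authors aligned reads to mm10 with QuasR (HISAT2, spliced mode). Raw counts for UCSC knownGene models were deposited together with a width for each gene. The submitters' notes also name bcl2fastq 2.17. How multimapping, overlapping or strand-specific reads were counted is not given in the sources used here. The labels name a stranded TruSeq mRNA kit, the methods TruSeq RNA v2. RefSeq GRCm38.p6 gave symbols for 24570 of 24594 gene IDs.

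The 10 genes and all lists were chosen with earlier results of these data known. From the counts, edgeR 4.0.16 (R 4.3.3) kept 15682 genes (filterByExpr by genotype), applied TMM factors and fitted the legacy quasi-likelihood model with batch and genotype over 24 libraries, with Benjamini-Hochberg adjustment over all genes tested. SEs were obtained as the size of the log2 change over the root of F. Of 200 genes with a mean of at least 10 counts, simulated at an absolute log2 fold change of 2, 188 (94%) were recovered for Rsf1Δ and 186 (93%) for BptfΔ. Changes near the threshold or in genes with lower counts were not simulated. Alternatives were DESeq2 1.42.0, the newer quasi-likelihood form, library size only, no filter, a stricter filter (CPM of at least 1 in 2 libraries), own WT libraries only, no batch, a replicate block and leaving out each library. With 2 against 2 libraries, an exact permutation test of a single value could not go below p = 0.333, so none was used. Named genes were the 10 genes, for each list at most the 4 called in the most lines (ties by the largest change), the targeted genes and the 5 most alike by correlation, of which 1 is not reported here. Neighbouring genes and Rpph1 were added after values were seen. Counts of 15 replicate pairs varied 1.38 to 20.4 times as much as sampling alone gives, so none was treated as 1 library deposited more than once. This does not show that they came from separate cultures.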

Additional observations from a re-analysis of the deposited data

How the results depend on the processing

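Across the alternatives, 135 of 148 counts of called genes stayed within 1.5 times the reported count, 663 of 740 fold changes of the 10 genes moved by less than 1 SE, and 0 of the 14 called changes of these genes turned sign. Without batch in the model, the called members were 2 in Rsf1Δ (1 as reported), 2 in Tip5Δ (1) and 1 in Cecr2Δ-labelled libraries (0), and the other germline genes called were 4 in Tip5Δ (11) and 10 in WstfΔ (19). Over all tested genes, that model called 134 in Rsf1Δ (927), 159 in Tip5Δ (426), 616 in Cecr2Δ-labelled libraries (488) and 500 in WstfΔ (1638). With own WT libraries only, 5 other germline genes were called in Acf1Δ (8), and 560 of all tested genes (698). The cause was not tested. Leaving out 1 library at a time gave 1 to 2 called members in Rsf1Δ, 1 in Tip5Δ, 0 in Cecr2Δ-labelled libraries, 1 to 2 in Acf1Δ, 3 to 5 in WstfΔ and 5 to 8 in BptfΔ. It gave 1 to 4 other germline genes in Rsf1Δ, 8 to 11 in Tip5Δ, 3 to 4 in Cecr2Δ-labelled libraries, 5 to 7 in Acf1Δ, 15 to 18 in WstfΔ and 20 to 23 in BptfΔ. Rsf1Δ had 2 members (Slc25a31 added) without its replicate 2 or without replicate 1 of WT in batch A, and the latter gave 1 other germline gene. Acf1Δ had 2 without its replicate 2 (Hormad1, -1.08) or without replicate 2 of its WT (Sycp3, -1.03), and 5 other germline genes without replicate 1 of its WT. WstfΔ had 3 without its replicate 1.

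Same-numbered libraries did not deviate together (correlations of -0.0672 to 0.0453), so the numbers do not pair them. With a replicate block, called members were 1 in Rsf1Δ, 1 in Tip5Δ, 0 in Cecr2Δ-labelled libraries, 1 in Acf1Δ, 5 in WstfΔ and 6 in BptfΔ, and the other germline genes 3, 11, 4, 7, 19 and 24 in that order. Genes under the floor of 3 counts, such as Tex101 and Ldhc in BptfΔ, are limited by depth.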
